A study of Mus musculus with 6 samples.

Results

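The B cell lineage genes described here are Ms4a1, Cd79a, Cd79b, Cd22, Pax5, Blnk, Fcer2a, Cr2 and Ebf1, 9 of the 18194 genes that carry a single symbol in the annotation of the array. Their members are all 17 of 45101 probe sets whose only symbol is 1 of these 9. RNA came from CD4+YFP+ T cells that flow cytometry had isolated from mouse lymph nodes, with 3 arrays per genotype, lettered A, B and C. The KO mice carried FoxP3-GFP-hCre, ROSA26R-YFP and Dicerlox/lox, so that both Dicer copies could be deleted. The Het mice carried the same FoxP3-GFP-hCre and ROSA26R-YFP with Dicerwt/lox, so that 1 of their 2 Dicer copies could be deleted. In both genotypes Cre is made under the control of Foxp3, the lineage factor of regulatory T cells, and YFP marks cells in which Cre has acted, including any that have since lost Foxp3. Age, the number of animals behind an array and what the letters stand for are not given in the sources used here, and the p-values rest on the variation among these arrays, part or all of which may be technical.

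B cells are the lymphocytes that make antibody, and the products of these genes give them their identity. Ebf1 and Pax5 encode the transcription factors that set up and hold the lineage, and both are known to act at the Cd79a promoter. CD79A and CD79B, the chains that pair with surface immunoglobulin, carry the signal of the B cell receptor, which the adaptor BLNK passes on and the sialic acid binding lectin CD22 restrains. CR2 (CD21) is a complement receptor, FCER2A (CD23) the low-affinity receptor for IgE on mature follicular B cells, and MS4A1 (CD20) a membrane protein of B cells from the pre-B stage until they become plasma cells. Lymph nodes are rich in B cells, and the sort here was for CD4 and YFP.

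The sorted cells carried the genes of their label. Cd3d, a chain of the T cell receptor complex, read 28842, 26535 and 28922 on KO A, B and C, against 31906, 34413 and 32690 on Het A, B and C. Values are the GCRMA intensities that the authors deposited, on a linear scale in arbitrary units, and they compare arrays within a probe set, not probe sets with each other. Foxp3 read 5453, 9417 and 5420 on KO A, B and C, against 9960, 8945 and 9769 on Het A, B and C, so that KO B lay apart from the other KO arrays. The sum over 6 measured T cell genes was 95445 to 107141 in KO and 108906 to 113804 in Het. The targeted gene Dicer1 read 709 to 1187 in KO and 1059 to 1345 in Het over its 2 probe sets (log2 differences -0.03 and -0.52; limma, adjusted p = 0.891 and 0.145), and since the sources used here do not say whether its probes lie in the deleted part, Dicer1 gives no check of the labels. Median intensities were 58.1 to 61.5 over the 6 arrays, and the precision is limited by the 3 arrays of each genotype. The arrays lettered B stood apart in both genotypes for some genes of other cells, though not for all. The CD8 coreceptor genes Cd8a and Cd8b1 summed to 4415 on KO B, against 636 and 670.2 on the other KO arrays, and to 2257 on Het B, against 651 and 909 on the other Het arrays. Over 5 measured NK cell genes the sums were 166 to 1755 in KO and 153 to 644 in Het, with Klrd1 behind the high values of the B arrays and Ncr1 below the filter described next. Over 8 measured myeloid genes they were 1298, 3886 and 2385 on KO A, B and C, against 445, 765 and 489 on Het A, B and C. The defining genes Cd14 and Itgam lay below that filter. Lyz2 was highest on the B array in both genotypes, at 1408 on KO B and 381 on Het B. Cd68 and Fcgr3 were lowest on Het B among the Het arrays, at 28.35 and 55.2. Over 5 measured dendritic cell genes the sums were 319 to 376 in KO and 333 to 353 in Het. The part of these cells in the results was not tested, and the main genotype differences below are given with and without KO B and Het B.

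None of the B cell lineage genes passed the test of KO against Het. On array B of both genotypes, 2 of the 6 that could be tested stood at least 2-fold above A and C. Of all probe sets tested 0.156% did so. In 5 of the 6, array B was highest in both genotypes, at 1.57 times or more the mean of A and C. The 1.57 is the lowest of their ratios, not a threshold set in advance, and no share over all probe sets was computed for it. The test of KO against Het was limma on log2 intensities. Its p-values were adjusted by Benjamini-Hochberg over the 29507 probe sets that exceeded a log2 value of 4 on 3 or more arrays. It called 1.78% of them at an adjusted p under 0.05. Of the 17 B lineage probe sets 9 passed that filter, covering 6 genes, and 0 of these 9 were called. At an unadjusted p under 0.05, which 19.1% of all probe sets reached, the count was 2, both of Cd22. The median log2 difference of KO minus Het was 0.32 over the 6 genes and -0.03 over all probe sets tested. In these bulk samples the cells that a reading came from cannot be told, nor the number of such cells from the RNA in each.

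**Figure D1:**
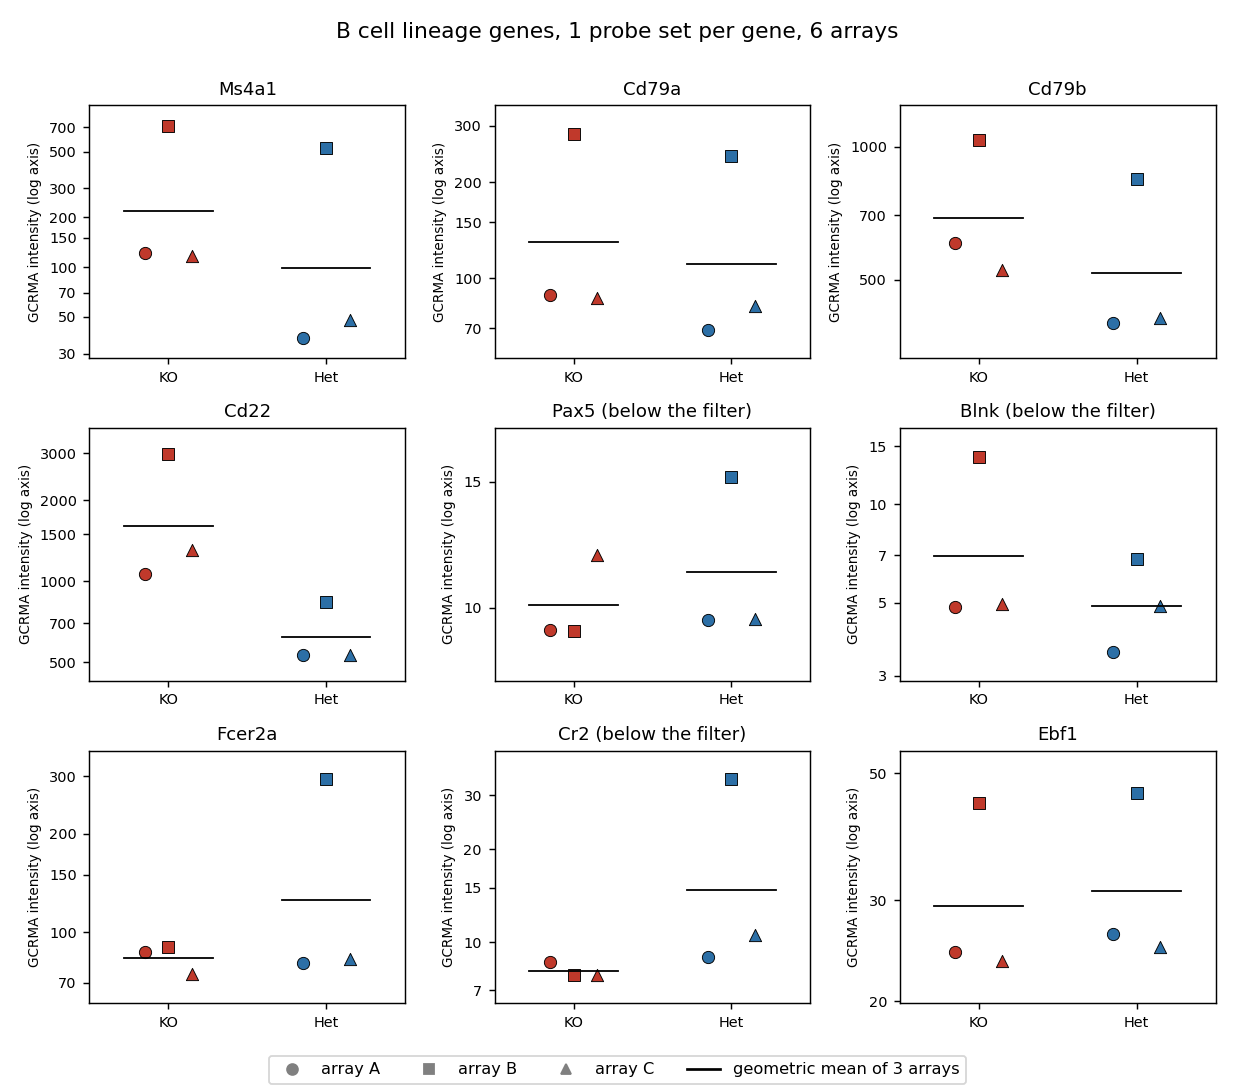
GCRMA intensity (log axis, arbitrary units) of 1 probe set for each of the 9 genes on the 3 KO and 3 Het arrays, with circles, squares and triangles for arrays A, B and C and a line at each group's geometric mean. For Ms4a1, Cd79a, Cd79b, Cd22 and Ebf1 the square lies highest in both genotypes. For Fcer2a and Cr2, and less so for Pax5, it stands apart in Het and not in KO.

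The signalling chains of the B cell receptor followed the B arrays. Cd79a (chr7:24897497-24901858, GRCm38.p6) read 88.9, 284 and 86.9 on KO A, B and C, against 69.2, 241 and 82.0 on Het A, B and C. KO B and Het B lay close together, 3.22 and 3.19 times the mean of the A and C arrays of their own genotype, and the genotypes overlapped. The log2 difference of Cd79a was 0.23 ± 0.67 (SE; limma, adjusted p = 0.885), and 0.22 without the B arrays. Cd79b (chr11:106311341-106314562) read 607, 1035 and 527 in KO, against 399, 845 and 409.8 in Het, so that its B arrays stood 1.83 times (KO) and 2.09 times (Het) above the mean of the others. KO A and KO C lay between the low Het arrays and Het B, so the genotypes overlapped. The log2 difference of Cd79b was 0.42 ± 0.39 (SE; limma, adjusted p = 0.624), and 0.48 without the B arrays (adjusted p = 0.200). It was 0.13 without KO B and 0.77 without Het B.

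Cd22, the inhibitory receptor, was the gene in which every KO array lay above every Het array. Its brighter probe set read 1063, 2980 and 1312 on KO A, B and C, against 534, 839.6 and 534 on Het A, B and C. Its dimmer probe set read 49.5, 158 and 63.2 in KO, against 10.4, 47.6 and 9.89 in Het. Such separation, with KO above Het, held for 2 of the 9 tested B lineage probe sets, both of Cd22, and for 11.3% of all probe sets tested. The log2 differences were 1.37 ± 0.43 on the brighter probe set (95% interval 0.31 to 2.43; adjusted p = 0.173) and 2.22 ± 0.76 on the dimmer one (0.34 to 4.10; adjusted p = 0.202; SE, limma), neither past the threshold. Without the B arrays they were 1.15 and 2.47 (adjusted p = 0.146 and 0.137). On the A and C arrays Cd22 averaged 1188 in KO and 534 in Het, a ratio of 2.23. The part of other cells on these arrays was not tested. Its position is chr7:30865404-30880342.

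Ms4a1 had the widest spread of the tested members. On its brighter probe set it read 122, 717 and 117 on KO A, B and C, against 37.4, 524 and 48.1 on Het A, B and C. The dimmer probe set gave 123, 444 and 94.95 in KO, against 24.5, 448 and 43.2 in Het. KO B stood 5.98 times and Het B 12.2 times above the mean of the other arrays of its genotype on the brighter probe set. Among the A and C arrays those of KO lay above those of Het on both probe sets, with means of 119.9 and 42.8 on the brighter one, a ratio of 2.80. The log2 difference over all arrays was 1.15 ± 1.25 (95% interval -1.94 to 4.24; adjusted p = 0.677; SE, limma), and 1.50 without the B arrays (adjusted p = 0.146). Ms4a1 lies at chr19:11249679-11266149.

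Fcer2a and Cr2, receptors of mature B cells, had a different pattern. Fcer2a (chr8:3680280-3694174) read 86.6, 89.9 and 74.1 on KO A, B and C, against 80.3, 293 and 82.95 on Het A, B and C. Het B therefore stood 3.59 times above the mean of Het A and Het C, while KO B was 1.12 times the mean of KO A and KO C. The dimmer Fcer2a probe set was likewise highest on Het B, at 18.4, 18.2 and 18.2 in KO and 19.1, 31.0 and 18.0 in Het. Cr2 (chr1:195136811-195176880) read 8.66, 7.80 and 7.85 in KO, against 8.94, 33.9 and 10.5 in Het. Its 1 probe set did not pass the filter, and on the arrays other than Het B it read 7.80 to 10.5. The Fcer2a log2 difference was -0.59 ± 0.52 (95% interval -1.89 to 0.72; adjusted p = 0.607; SE, limma), and -0.03 without the B arrays. Of all probe sets tested 144 (0.488%) stood at least 2-fold higher on Het B than on each of the other 5 arrays, among them the brighter Fcer2a probe set, the 1 of 9 B lineage probe sets to do so. For KO B that count was 199 (0.674%), 2 of them the Cd22 probe sets. Whether the B arrays differ between genotypes in this respect cannot be tested, since each genotype has 1 of them.

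The lineage factors and the adaptor were dim. Ebf1 (chr11:44618100-45008096) read 24.4, 44.3 and 23.5 on KO A, B and C, against 26.2, 46.2 and 24.9 on Het A, B and C, on the 1 of its 5 probe sets that passed the filter. Although dim, it was raised to a like degree on both B arrays, 1.85 times in KO and 1.81 times in Het, with a log2 difference between genotypes of -0.08 ± 0.35 (SE; limma, adjusted p = 0.920) and -0.09 without the B arrays. A further Ebf1 probe set read 9.91 on KO B and 19.3 on Het B, against 9.72 to 11.04 on the other KO arrays and 10.2 on each other Het array. The other 3 read between 3.92 and 14.7 with no array apart. Pax5 (chr4:44524748-44710694) read 9.31, 9.28 and 11.9 in KO and 9.62, 15.2 and 9.64 in Het on its brighter probe set, and its other probe set read 4.80 to 4.99 on all arrays. Blnk (chr19:40928927-40994221) read 4.87, 13.9 and 4.96 in KO and 3.55, 6.81 and 4.90 in Het. The brighter Pax5 probe set and the further Ebf1 probe set were thus highest on Het B and not raised on KO B, as were Fcer2a and Cr2. On the 6 arrays the brighter Pax5 probe set lay at percentiles 22.7 to 34.3 of all probe sets and Blnk at 1.25 to 32.4, and neither gene was tested.

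**Figure D2:**
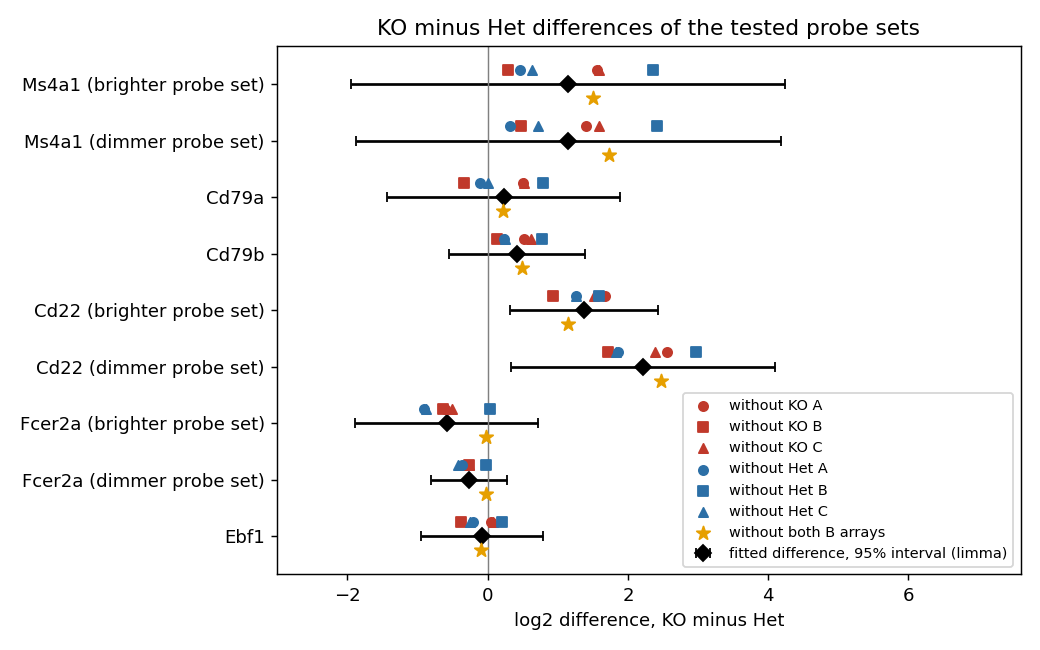
Log2 difference of KO minus Het for the 9 tested probe sets, with the fitted value (diamond), its 95% interval from limma (bar), the value without each array in turn (red for a KO array, blue for a Het array) and the value without both B arrays (star). The intervals of both Cd22 probe sets lie above 0, at 0.31 to 2.43 and 0.34 to 4.10, before adjustment over all probe sets, and the others include 0.

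The promoters of 4 members are shown because they stand for the patterns above: Cd79a and Cd22 read higher on both B arrays, and Fcer2a and Cr2 on Het B alone among the 6. RefSeq promoter sequences (GRCm38.p6) were at hand for 7 of the 9 genes, each running from 250 bases before to 50 after an annotated start. For Fcer2a the outermost of 3 starts is shown, while the Cd22 and Cr2 starts lie inside the annotated gene. Capitals mark matches, on either strand, to CCCNNGGG, the core of the site that EBF1 binds, to the octamer ATGCAAAT, bound by OCT factors, or to the E-box CAGGTG, bound by E proteins.
Cd79a promoter, chr7:24897247-24897546, plus strand: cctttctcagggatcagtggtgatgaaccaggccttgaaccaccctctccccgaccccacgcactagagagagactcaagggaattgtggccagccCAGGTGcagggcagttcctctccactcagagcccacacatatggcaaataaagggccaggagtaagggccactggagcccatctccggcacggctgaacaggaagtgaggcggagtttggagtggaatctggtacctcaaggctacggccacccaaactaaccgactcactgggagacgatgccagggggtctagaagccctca
Cd22 promoter, chr7:30878979-30879278, minus strand: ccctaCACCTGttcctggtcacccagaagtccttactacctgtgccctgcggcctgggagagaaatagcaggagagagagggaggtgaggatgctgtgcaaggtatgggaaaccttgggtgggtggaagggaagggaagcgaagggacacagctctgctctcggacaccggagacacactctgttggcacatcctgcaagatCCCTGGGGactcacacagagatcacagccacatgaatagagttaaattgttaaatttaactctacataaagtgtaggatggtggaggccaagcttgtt
Fcer2a promoter, chr8:3694125-3694424, minus strand: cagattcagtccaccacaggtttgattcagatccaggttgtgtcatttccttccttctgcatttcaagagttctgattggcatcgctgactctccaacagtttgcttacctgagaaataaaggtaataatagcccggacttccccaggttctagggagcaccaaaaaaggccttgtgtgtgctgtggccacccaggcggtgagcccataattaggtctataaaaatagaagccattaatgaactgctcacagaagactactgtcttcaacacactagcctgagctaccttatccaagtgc
Cr2 promoter, chr1:195176670-195176969, minus strand: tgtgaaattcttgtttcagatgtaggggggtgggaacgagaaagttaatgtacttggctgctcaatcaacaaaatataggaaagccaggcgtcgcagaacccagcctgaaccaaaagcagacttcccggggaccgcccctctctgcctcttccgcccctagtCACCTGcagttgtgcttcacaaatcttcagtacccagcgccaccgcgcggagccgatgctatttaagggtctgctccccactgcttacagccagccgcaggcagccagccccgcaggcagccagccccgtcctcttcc
The Cd79a and Cr2 stretches each held 1 E-box, the Cd22 stretch 1 E-box and 1 EBF core, and the Fcer2a stretch no match, whereas another Fcer2a start, at chr8:3690812-3691111, had 2 E-boxes. Over all 32851 promoters of this length 20.2% held the E-box, 13.7% the EBF core and 1.74% the octamer. These matches are letters in a window and no measurement of binding. Only exact matches were marked, so a stretch without a mark may still hold a site that departs from these letters.

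The replicate letter was tested next, in a limma fit of genotype and letter, because the B arrays of both genotypes stood apart for these genes. The F test of the letter over all probe sets made 0 calls at an adjusted p under 0.05 (0% of 29507; 1417, or 4.80%, at an unadjusted p under 0.05). Of the 9 B lineage probe sets 7 had an unadjusted p under 0.05, all but those of Fcer2a. Cd79a had the smallest of them by limma's F test (adjusted p = 0.847), followed by the brighter Ms4a1 probe set (adjusted p = 0.905). In size, 4 of the 9 stood at least 2-fold above A and C on the B arrays of both genotypes: both Ms4a1 probe sets, Cd79a and the dimmer Cd22 probe set. Of all probe sets tested 46, or 0.156%, did so. The median difference of B minus the mean of A and C was 1.0 on the log2 scale over the 6 genes and -0.01 over all probe sets. The members had been chosen with these values known, so the contrast with the background is a description.

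The excess of each B array over the mean of A and C of its genotype, taken on the linear scale, differed between the members. Ms4a1, Cd79a, Cd79b and Ebf1 had excesses on KO B that were 1.24, 1.18, 1.06 and 0.982 times those on Het B. For Ms4a1 that was 597 units on KO B and 481 units on Het B. Cd22 had an excess of 1793 units on KO B and 306 units on Het B, 5.86 times as much on KO B. The dimmer probe sets gave other ratios, 2.71 for Cd22 and 0.808 for Ms4a1, so for Ms4a1 the direction turned with the probe set. Fcer2a had an excess of 9.58 units on KO B and 212 units on Het B, a ratio of 0.0452. Genes of other cells on the same arrays had ratios of 1.78 (Cd8a), 3.09 (Cd8b1) and 3.12 (Klrd1, a receptor chain of NK cells). The myeloid genes Lyz2 and Mpeg1 had 3.49 and 5.52, while Cd68 and Fcgr3 had a negative excess on Het B. A large ratio was not particular to Cd22. Among other genes of B cells it was 8.89 for Syk (brighter probe set) and 20.4 for Ly6d, over small excesses of 36.4 and 15.2 units on Het B. It was 0.503 for Tnfrsf13c and 0.214 for Fcmr. The dimmer tested Syk probe set went the other way. It was lowest of the KO arrays on KO B, at 79.95, and highest of the Het arrays on Het B, at 120. These ratios rest on 1 array per genotype and on intensities after background subtraction, and no error can be given for them.

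**Figure D3:**
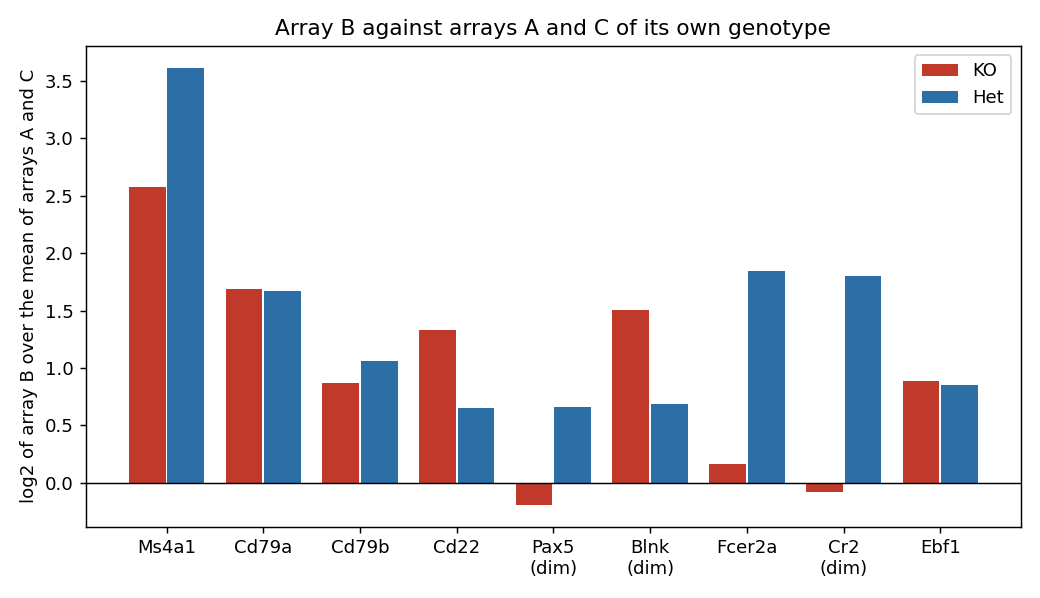
Log2 ratio of array B to the mean of arrays A and C of the same genotype for the 9 genes, KO in red and Het in blue, from 1 probe set per gene and with no error since each genotype has 1 such array. Cd79a, Cd79b and Ebf1 have bars of like height in both genotypes. Cd22 has the higher bar in KO on the brighter probe set drawn (its dimmer one had 1.50 in KO and 2.23 in Het). Fcer2a and Cr2 have a bar in Het with almost none in KO, and Pax5 a smaller bar in Het and a small downward one in KO. Pax5, Blnk and Cr2 are marked as dim.

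Across the 6 arrays the members resembled each other to different degrees. Ms4a1, Cd79a and Cd79b correlated with each other at Pearson's r of 0.947 to 0.990 and with Ebf1 at 0.852 to 0.960. Cd22 correlated with these 4 at 0.464 to 0.800, and Fcer2a with them at 0.506 to 0.721. Between Cd22 and Fcer2a r was -0.08. These are descriptions over 6 arrays that share genotype and letter, with KO B and Het B at the high end.

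The 10 other genes most like the mean pattern of the 6 tested members were led by MHC class II genes. Likeness was Pearson's r over the 6 arrays with the members' mean centred log2 profile, among probe sets with a range of at least 1 on the log2 scale. H2-Ab1, a class II beta chain gene, had r = 0.987 and read 146, 1131 and 147 on KO A, B and C, against 38.3, 544 and 47.8 on Het A, B and C. H2-Aa (r = 0.986) and H2-Eb1 (r = 0.966), which encode further class II chains, and Serpinb1a (r = 0.976), a protease inhibitor, had the same order of B arrays over the rest. Bcl11a, a factor needed for B cell development, had r = 0.961 on a probe set that read 19.4, 71.2 and 17.7 in KO and 16.8, 43.8 and 15.1 in Het. Alcam (0.957), Klrd1 (0.952), Atrnl1 (0.950), Tmem41b (0.945) and Cd8a (0.943) completed the 10. Klrd1 and Cd8a are not B cell genes, so likeness over these 6 arrays was not limited to genes of B cells. None of the 10 passed the test of KO against Het (limma, adjusted p = 0.519 to 0.915).

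**Figure D4:**
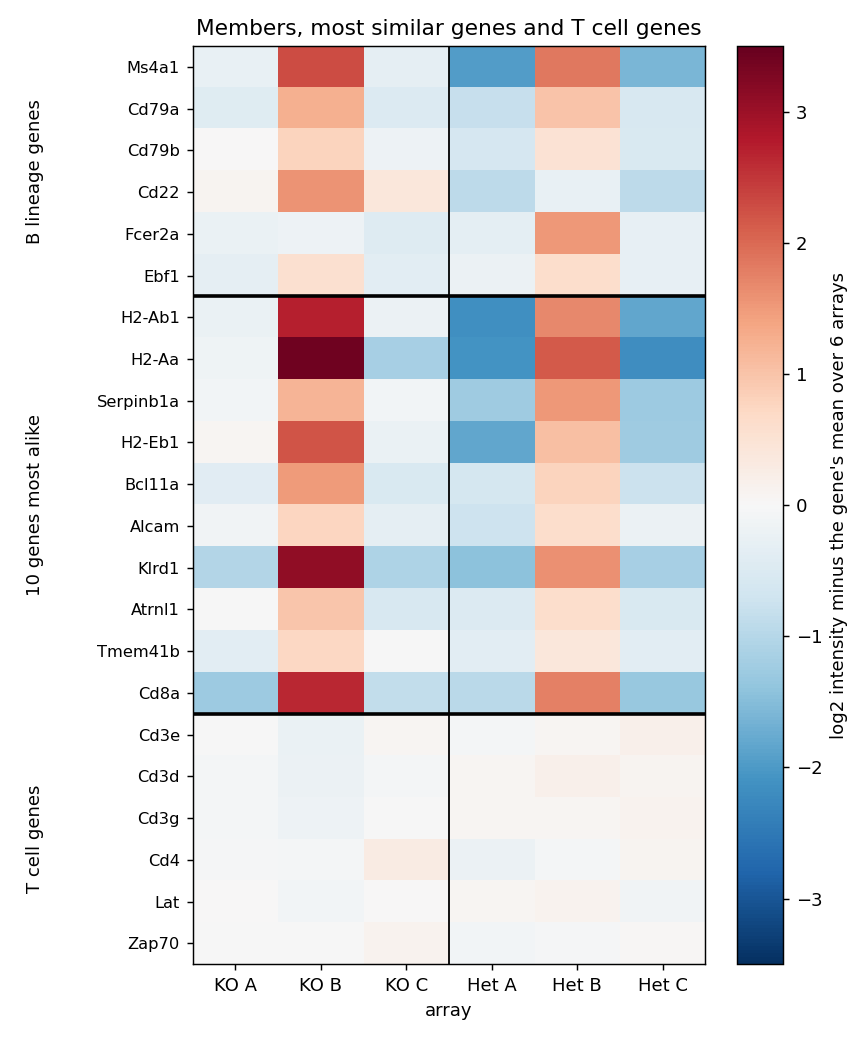
Log2 intensity minus each gene's mean over the 6 arrays (colour, log2 units) for the 6 tested members, the 10 most similar genes and 6 T cell genes, with KO arrays left of Het arrays. The members and the similar genes are highest on KO B and Het B, apart from Cd22 and Fcer2a, while the T cell genes vary little.

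Partners of these genes in B cell receptor signalling had 0 calls of KO against Het among 14 tested by limma (unadjusted p under 0.05 for 0 with KO higher and 1 with KO lower), with a median log2 difference of 0.13. Syk, the kinase that CD79A and CD79B recruit, read 174, 496 and 169.9 on KO A, B and C, against 134, 162 and 117 on Het A, B and C (log2 0.84 ± 0.45, SE; adjusted p = 0.382; 0.46 without the B arrays), while its dimmer tested probe set gave -0.24. Bank1, a scaffold of B cells, read 651, 763 and 241 in KO, against 247, 657 and 135 in Het (log2 0.82 ± 0.71, adjusted p = 0.597; 1.12 without the B arrays). Plcg2, the phospholipase downstream of BLNK, read 115, 157 and 114 in KO, against 98.1, 145 and 111 in Het. The kinase gene Btk lay below the filter at 6.44 to 9.47 in KO and 6.54 to 6.66 in Het. For Syk KO B stood above Het B on the brighter probe set and below it on the dimmer tested one. For Plcg2 both B arrays lay above their groups.

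Among 11 B cell transcription factors 0 were called by limma (unadjusted p under 0.05 for 1 with KO higher and 1 with KO lower; median log2 difference 0.04). Spib, an ETS factor of B cells, read 75.4, 181 and 72.9 on KO A, B and C, against 77.7, 176 and 77.5 on Het A, B and C. Its excess on KO B was 1.09 times that on Het B, close to the ratios of Cd79a, Cd79b and Ebf1. Pou2af1, the B cell coactivator of OCT factors, read 221, 949 and 609 in KO, against 199.6, 588 and 331 in Het (log2 0.57 ± 0.65, SE; adjusted p = 0.690; 0.51 without the B arrays). For Bcl11a the brightest probe set read 83.1 to 84.2 in KO and 85.3 to 95.1 in Het, so it did not share the pattern of the dimmer one given above.

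Of 13 further surface genes of B cells 0 were called by limma (unadjusted p under 0.05 for 2 with KO higher and 2 with KO lower; median log2 difference -0.16). Cd40, the receptor through which helper T cells activate B cells, read 461, 503 and 373 on KO A, B and C, against 205, 264 and 272 on Het A, B and C. The groups of Cd40 did not overlap on any of its 3 probe sets, at log2 differences of 0.85 to 1.65 (adjusted p = 0.0580 to 0.0850) and 0.81 to 1.46 without the B arrays. These probe sets measure the same gene, and every KO array lay above every Het array in 11.3% of all probe sets tested. On a dimmer Cd40 probe set KO B read 458, against 235 and 271 on the other KO arrays, and on the dimmest the B array was highest in both genotypes. Tnfrsf13c, the receptor for the B cell survival factor BAFF, read 243, 403 and 209 in KO, against 208, 585 and 259 in Het. Cxcr5, the chemokine receptor for B cell follicles, which follicular T cells make too, read 256, 724 and 729 in KO, against 534, 1160.0 and 509.6 in Het. Fcmr, the receptor for IgM, was named after its values were seen: it read 108, 193 and 85.7 in KO, against 222, 644 and 164 in Het (log2 -1.24 ± 0.58, SE; adjusted p = 0.326; -0.99 without the B arrays).

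Genes shared with antigen presentation and antibody secretion did not all follow the same pattern. On the B arrays of both genotypes 3 of 9 class II genes stood at least 2-fold above A and C. This held for 0 of 6 antibody and plasma cell genes and for 0.156% of all probe sets tested. For KO against Het, limma called 1.78% of all probe sets tested. Cd74, the invariant chain of MHC class II, read 4542, 8323 and 2941 on KO A, B and C, against 1348, 4055 and 1472 on Het A, B and C (log2 1.26 ± 0.57, SE; limma, adjusted p = 0.303; 1.38 without the B arrays). Of 9 class II genes 1 was called, higher in KO: H2-DMa, which helps load peptide, read 1818, 2382 and 2592 in KO, against 296, 494.5 and 178 in Het (log2 2.92 ± 0.39, adjusted p = 0.0363; 3.24 without the B arrays). H2-Ob, a chain of the protein that restrains that loading, had the opposite sign (log2 -1.73, adjusted p = 0.0990; -1.98 without the B arrays). Of 6 antibody and plasma cell genes 1 was called, higher in KO: Xbp1, a factor of secretory cells, read 12588, 14990.0 and 15127 in KO, against 7859, 7251 and 7824 in Het (log2 0.89 ± 0.10, adjusted p = 0.0270; 0.82 without the B arrays). The brightest of the Ighm probe sets read 6398, 6242 and 4742 in KO, against 5367, 11522 and 9532 in Het (log2 -0.55, adjusted p = 0.409; -0.38 without the B arrays). Of 8 tested Ighm probe sets 4 were called, each higher in KO, at log2 4.26 to 6.83, and 3 had a negative difference. One of the called probe sets read 3814, 19344 and 10920.0 in KO, against 85.4, 148 and 71.7 in Het (log2 6.59 ± 0.64, adjusted p = 0.0222). The calls of H2-DMa, Xbp1 and all 4 Ighm probe sets were lost without both B arrays (adjusted p = 0.145 to 0.155) and when KO B, KO C or any Het array was left out, and that of H2-DMa also without KO A. Few calls were left anywhere in these fits. Of all probe sets tested, 0 were called without both B arrays, 8 without KO B and 0 without KO C. The counts were 3, 18 and 2 without Het A, B and C, and 176 without KO A. The lost calls therefore do not set these genes apart. Without both B arrays the Ighm difference just given was 6.37. In that Ighm probe set KO A and KO C lay above Het B, as in Cd22 and in none of the other B lineage genes. Jchain, which joins secreted antibody, read 389, 3197 and 2623 in KO, against 11.5, 163 and 13.6 in Het (log2 5.66 ± 1.32, adjusted p = 0.101; 6.34 without the B arrays).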

How the data were processed

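RNA of 6 samples was measured on 1 array each. The authors deposited probe set intensities normalized with GCRMA per the labels, with no version stated there. Values ran from 1.23 to 170023 and were read as linear. GCRMA subtracts a background modelled from probe sequence, so dim probe sets crowd at a floor and their folds depend on that step.

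Of 45101 probe sets, 64 controls and 1 incomplete row were dropped, and tests covered those that exceeded a log2 value of 4 on 3 or more arrays. Symbols came from the platform annotation. A gene's brightest probe set stands for it. The genotypes were compared with limma 3.58.1 under R 4.3.3 (lmFit, eBayes, two-sided, Benjamini-Hochberg over all probe sets tested, threshold 0.05), and the letter by a moderated F test beside genotype. These steps were tested on simulated data. Genes outside the members were named by likeness to their profile or from fixed lists. From these lists Fcmr, Ly6d, Jchain, H2-DMa, H2-Ob, Xbp1, Lyz2, Mpeg1, Cd68 and Fcgr3 were picked after their values were seen. The members, lists and tests were chosen with earlier results of these data known. Gene positions and promoters are RefSeq's (GRCm38.p6), and the array's own probe positions were not used. Alternatives were other filters, normalizations and variance models, a replicate block, array weights, an added 32 before log2 and leaving out arrays.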

Additional observations from a re-analysis of the deposited data

How the results depend on the processing

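Under every alternative run, 0 B cell lineage probe sets were called for genotype (limma). For the letter, which was not tested with the block, with array weights or without both B arrays, 0 were called under the others. The number of all probe sets called for genotype was 525, and it was 0 with the replicate block, 0 without both B arrays, 957 with array weights and 0 to 176 when 1 array was left out. Pairing by letter was looked at through the correlation of arrays' deviations from their group means over all probe sets tested. For same-lettered arrays it was 0.283 for A, -0.17 for B and 0.0118 for C. Between different letters it ran from -0.451 (KO A with Het C) to 0.374 (KO B with Het C). Deviations within a genotype sum to 0, so these values constrain each other and cannot exclude pairing. The main test did not pair the arrays, although most tested B lineage genes and the CD8 genes were high on both B arrays. In this balanced design the replicate block cannot move a difference. With it the adjusted p was 0.185 for the brighter Ms4a1 probe set, 0.0904 for the dimmer Cd22 probe set and 0.196 for Cd79b, and the calls of H2-DMa, Xbp1 and Ighm were lost (0.0801 to 0.105). Of the single probe sets' differences 6 turned direction, all with 1 array left out and none past the threshold: Cd79a ranged from -0.34 (without KO B) to 0.79 (without Het B), Ebf1 from -0.38 (without KO B) to 0.20 (without Het B) and the brighter Fcer2a probe set from -0.91 (without Het A) to 0.029 (without Het B). The Cd22 differences ranged from 0.93 to 1.67 and from 1.72 to 2.96, and the brighter Ms4a1 difference from 0.29 without KO B to 2.36 without Het B. A Cd40 probe set was called with the array weights (adjusted p = 0.0416) and the stricter filter (0.0457), a further Ighm probe set with the array weights (0.0375), and H2-DMa lost its call with no filter (0.0527). With 32 added before log2 the dimmer Cd22 difference was 1.13. The background correction itself could not be redone from summarised intensities, no array gives a detection call, and Pax5, Blnk and Cr2 were too dim to test.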
